A study of Mus musculus with 6 samples.

Results

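Desmosomes are adhesive spots that join the keratin filaments of neighbouring epithelial cells. Their cadherins, the desmogleins and desmocollins, bind across the gap between cells, and inside the cell their tails bind armadillo proteins, plakoglobin and the plakophilins. The plakin desmoplakin then ties this plaque to keratin filaments. Dsg2, Dsc2 and Pkp2 are the isoforms of simple epithelia such as the gut, whereas Pkp1, Ppl and Evpl are best known from stratified epithelia.

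The genes described are 10 desmosome components out of 19938 genes on the array: the cadherins Dsg2 and Dsc2, the armadillo proteins Jup, Pkp1, Pkp2 and Pkp3, the plakins Dsp, Ppl and Evpl, and the tetraspan protein Perp. They were chosen by symbol, and each of the 10 was annotated to 1 row of the value table, so no choice between rows was needed.

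RNA came from segments of mouse intestine taken at E14.5, about 1.5 cm anterior to the cecum. The deleted group is labelled Klf5D/D, with no Cre allele named in its label. The control group, Klf5wt/wtShhEGFP/Cre+, was wild-type for Klf5 and carried a Cre and EGFP allele of Shh, a gene of the gut epithelium. The strain of both groups is given as mixed (part C57Bl/6). Each group held 3 arrays, each of a pool of 2 intestines, and the values are log2 signals after RMA, which makes the distributions of arrays alike. The litters behind the pools are not stated in the labels, so each p-value reflects only how far these pools differ.

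Array medians lay between 7.81 and 7.89, and Klf5 itself read 10.24 to 10.49 in the deleted arrays and 11.55 to 11.77 in the controls. The intestinal genes Cdx2 and Vil1 read 11.50 to 11.57 and 11.00 to 11.04 in the controls, and 10.73 to 11.03 and 9.34 to 9.81 in the deleted arrays. The pools differed in sex: Xist, the RNA of X inactivation, read 5.89 to 6.47 in the deleted arrays and 11.93 to 12.61 in the controls. The male share of a pool was estimated from the Y-linked genes Eif2s3y, Kdm5d and Uty. On its scale 100% is the mean of the deleted arrays and 0% is the lowest array. The lowest array was control replicate 1, so its 0% is set by the scale. The share was 95% to 103% in the deleted pools, 47.1% in control replicate 2 and 40.8% in control replicate 3.

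Of the 10 desmosome genes, 7 fell in the Klf5-deleted intestine and 0 rose at a Benjamini-Hochberg adjusted p of 0.05 over all genes (limma). At an unadjusted p below 0.05 the counts were also 7 and 0. Over all 19938 genes, 8.58% were called lower and 8.95% higher at the adjusted p. At the unadjusted p, 2668 of the 19938 were lower and 3431 higher. The 7 genes were Pkp2, Dsc2, Perp, Ppl, Dsg2, Jup and Dsp, and their falls ran from 1.33-fold for Dsp to 2.07-fold for Pkp2. Pkp1, Pkp3 and Evpl did not pass. The median log2 fold change was −0.50 over the 10 genes and 0.02 over all genes. The groups did not overlap for the 7 genes called lower, and they overlapped for the other 3, whereas 15.9% of all genes were lower with no overlap. The tissue was analysed whole, so fewer epithelial cells and less RNA per epithelial cell cannot be told apart.

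**Figure D1:**
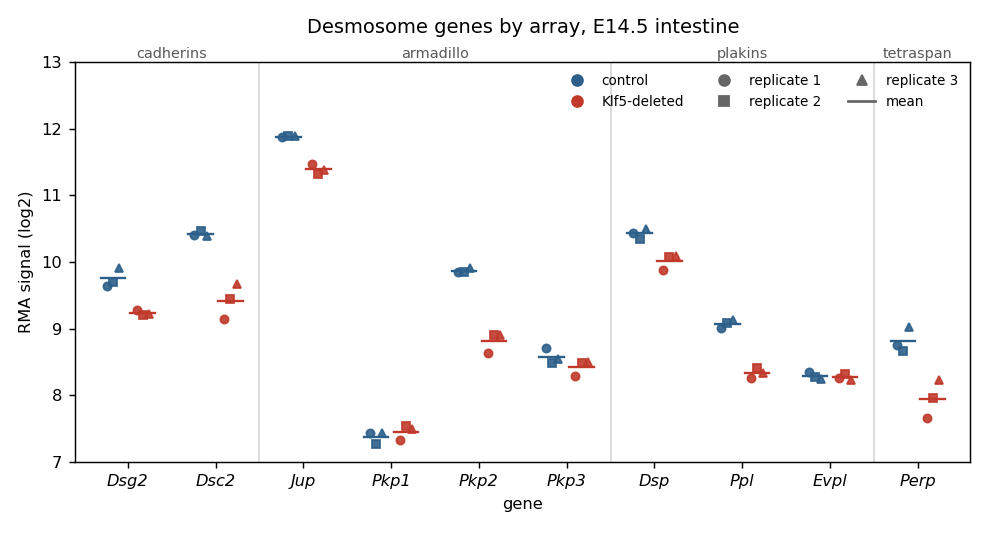
RMA signal (log2, y axis) of each desmosome gene (x axis, ordered by protein class) in 3 control and 3 Klf5-deleted arrays; each point is an array and each line a group mean. For Dsg2, Dsc2, Jup, Pkp2, Dsp, Ppl and Perp all deleted arrays lie below all controls, whereas the points of Pkp1, Pkp3 and Evpl overlap.

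Both desmosomal cadherins fell. Dsc2, which encodes desmocollin 2, read 9.14, 9.45 and 9.66 in the Klf5-deleted replicates 1 to 3 and 10.41, 10.47 and 10.38 in the controls. All deleted arrays were below all controls, and they spread more (SD 0.26) than the controls did (SD 0.04). On the log2 scale Dsc2 fell by 1.00 (SE 0.12, 3 arrays in each group, limma adjusted p = 0.0016), to 49.9% of the control level. Dsg2, which encodes the partner cadherin desmoglein 2, read 9.27, 9.21 and 9.22 in the deleted arrays and 9.64, 9.70 and 9.91 in the controls. Here the deleted arrays lay close together (SD 0.03). Dsg2 fell by 0.52 (SE 0.07, adjusted p = 0.00334), to 69.9% of the control level.

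The sizes of the falls of the partner cadherins were compared within arrays. The log2 signal of Dsg2 minus that of Dsc2 was 0.13, −0.24 and −0.44 in the deleted arrays and −0.77, −0.77 and −0.48 in the controls. The groups did not overlap, although replicate 3 of each group came close to the other. The shift of 0.49 had an exact two-sided permutation p of 0.1, the smallest that 3 arrays against 3 allow, and 0.145 after adjustment over all 45 pairs of the 10 genes, so it did not pass. Over those 45 pairs, 31 had no overlap between the groups, among them 9 of the 10 pairs within a class. The pairs reuse the same 10 genes, and no share over pairs of all genes was computed, so these counts only describe the values.

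Among the armadillo proteins, 2 of 4 fell. Pkp2, a plakophilin that clusters desmoplakin at the plaque, read 8.63, 8.91 and 8.90 in the deleted arrays and 9.84, 9.84 and 9.91 in the controls. The gap between the groups was wider than the range of either. Pkp2 fell by 1.05 (SE 0.08, adjusted p = 0.000199), to 48.2% of the control level. Jup, which encodes plakoglobin, a plaque protein also found at adherens junctions, read 11.47, 11.32 and 11.37 in the deleted arrays and 11.87, 11.88 and 11.88 in the controls. The controls were nearly identical (SD 0.01), and all deleted arrays were lower. Jup fell by 0.49 (SE 0.05, adjusted p = 0.000818), to 71.1% of the control level.

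The other 2 plakophilin genes did not pass. Pkp3, a plakophilin of simple and stratified epithelia, read 8.29, 8.48 and 8.49 in the deleted arrays and 8.71, 8.48 and 8.54 in the controls. Deleted replicates 2 and 3 and control replicate 2 had nearly the same signal, so the groups overlapped. Its log2 fold change was −0.16 (SE 0.08, adjusted p = 0.236), with a 95% interval from −0.34 to 0.03. Pkp1, the plakophilin of stratified epithelia, read 7.32, 7.53 and 7.49 in the deleted arrays and 7.43, 7.27 and 7.43 in the controls. Deleted replicate 1 and control replicate 2 were the lowest arrays of their groups, and the groups overlapped. Its log2 fold change was 0.07 (SE 0.07, adjusted p = 0.598), with an interval from −0.10 to 0.24.

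The same comparison was made between the plakophilins. The log2 signal of Pkp2 minus that of Pkp3 was 0.34, 0.43 and 0.41 in the deleted arrays and 1.14, 1.36 and 1.37 in the controls. That of Pkp1 minus Pkp2 was −1.31, −1.38 and −1.41 against −2.41, −2.58 and −2.48. Neither difference overlapped between the groups. Each had an exact permutation p of 0.1 (0.145 adjusted over 45 pairs), the smallest possible, so no pair could pass this test. For Pkp2 and the cadherin Dsc2 the groups overlapped. Dsc2 minus Pkp2 was 0.51, 0.54 and 0.77 in the deleted arrays and 0.57, 0.63 and 0.48 in the controls. The shift was 0.05 (exact permutation p = 0.7).

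Of the plakins, 2 of 3 fell. Dsp, which encodes desmoplakin, the obligate link from plaque to keratin, read 9.88, 10.08 and 10.09 in the deleted arrays and 10.44, 10.35 and 10.50 in the controls. Deleted replicate 1 was the lowest array, and control replicate 2 stood closest to the deleted arrays. Dsp fell by 0.41 (SE 0.07, adjusted p = 0.00807), or 1.33-fold. Ppl, which encodes periplakin, a linker of keratin to the cell border, read 8.26, 8.41 and 8.34 in the deleted arrays and 9.01, 9.09 and 9.13 in the controls. It fell by 0.74 (SE 0.06, adjusted p = 0.000205), to 60.0% of the control level, and the ranges within the groups were small beside that difference.

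Evpl encodes envoplakin, the plakin that pairs with periplakin in the cornified envelope. Evpl read 8.25, 8.32 and 8.23 in the deleted arrays and 8.35, 8.27 and 8.24 in the controls, and the groups overlapped. Its log2 fold change was −0.02 (SE 0.05, adjusted p = 0.841), with a 95% interval from −0.14 to 0.10. The log2 signal of Ppl minus that of Evpl was 0.01, 0.09 and 0.11 in the deleted arrays and 0.66, 0.82 and 0.88 in the controls, a shift of −0.72 (exact permutation p = 0.1). Ppl and Dsp differed by less: the shift of Dsp minus Ppl was 0.32 (exact permutation p = 0.1).

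Perp, a tetraspan membrane protein needed for desmosome assembly in the skin, read 7.66, 7.96 and 8.23 in the deleted arrays and 8.75, 8.66 and 9.02 in the controls. It had the widest spread of the 10 genes in both groups (SD 0.29 and 0.19), and the groups stayed apart. Perp fell by 0.86 (SE 0.15, adjusted p = 0.00852), to 55.1% of the control level, with a 95% interval from 1.42-fold to 2.32-fold.

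**Figure D2:**
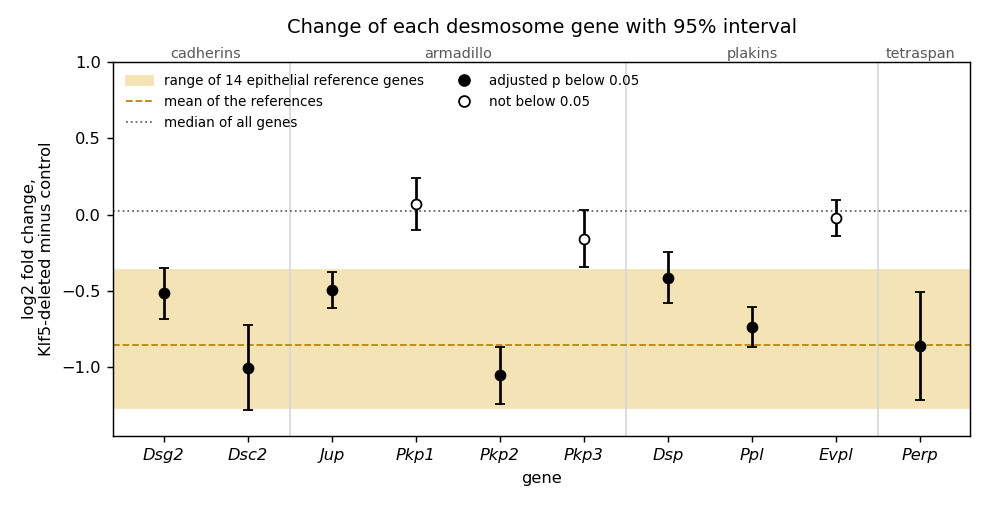
Log2 fold change (Klf5-deleted minus control, y axis) of each desmosome gene (x axis) with its 95% interval from limma; filled points have an adjusted p below 0.05. The band spans the 14 epithelial reference genes (−1.27 to −0.36), the dashed line is their mean (−0.85) and the dotted line the median of all genes (0.02); the 7 filled points lie inside the band and the 3 open points above it.

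The 3 protein classes overlapped in their changes. The cadherins fell by 0.52 and 1.00 (2 of 2 called lower, median −0.76). The armadillo proteins ranged from −1.05 to 0.07 (2 of 4, median −0.32) and the plakins from −0.74 to −0.02 (2 of 3, median −0.41). Each class held a gene that fell, and the armadillo proteins and plakins each also held a gene near 0. No test was made between classes.

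The 7 falls kept their calls on leaving out any 1 of the 6 arrays. When the male share was a covariate, all 7 kept their direction and none its call: −1.05 for Pkp2 (adjusted p = 0.139), −0.94 for Dsc2 (0.289), −0.88 for Ppl (0.0823), −0.81 for Perp (0.42), −0.74 for Dsg2 (0.171), −0.52 for Jup (0.201) and −0.33 for Dsp (0.473). In that fit the median SE over all genes was 2.48 times as large, and 0.416% of genes were called. Within the controls, replicate 1 had the lowest male share, set to 0% by the scale. That array lay between replicates 2 and 3 for Pkp2, Dsc2, Perp and Dsp, and was the lowest of the 3 for Jup, Dsg2 and Ppl. These orders rest on 1 array, and some differences were small, as Pkp2 read 9.84 in both control replicates 1 and 2. The part of sex in the falls was not tested by them. Without moderation of the variance, an alternative added after seeing the data, Dsp (adjusted p = 0.0593) and Perp (adjusted p = 0.0805) also lost their calls.

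Desmoplakin and plakoglobin are the members with a start-site sequence in the RefSeq table (GRCm38.p6), 2 of 10. Bases before each start and outside the RefSeq span of the gene are shown. The reason is that both genes fell when a Krüppel-like factor was deleted, and such factors are known to bind CACCC and GC-rich boxes. Of the 7 genes called lower, however, Dsp (−0.41) and Jup (−0.49) fell least. A link between these sequences and the falls was not tested. Capitals mark matches to CCNCNCCC, searched on both strands. The window is chr13:38151044-38151293 on the plus strand for Dsp and chr11:100397840-100398040 on the minus strand for Jup, both written 5′ to 3′.
Dsp: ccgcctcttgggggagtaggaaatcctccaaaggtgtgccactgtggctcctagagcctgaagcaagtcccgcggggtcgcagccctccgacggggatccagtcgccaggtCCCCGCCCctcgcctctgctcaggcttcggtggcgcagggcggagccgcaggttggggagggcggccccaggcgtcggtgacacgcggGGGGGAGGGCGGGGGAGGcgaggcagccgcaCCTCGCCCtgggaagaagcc
Jup: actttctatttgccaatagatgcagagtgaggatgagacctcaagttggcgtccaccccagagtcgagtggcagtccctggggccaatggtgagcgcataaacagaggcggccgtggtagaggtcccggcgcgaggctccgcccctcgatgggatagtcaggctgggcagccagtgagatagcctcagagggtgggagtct

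The 250 bases of Dsp held 5 matches to CCNCNCCC, some of which overlap each other, and 4 to the GC box GGGCGG. Of the 5 matches, 4 shared bases with a GC box. Over windows of 250 bases in the table, 45.9% held CCNCNCCC and 6.81% held at least 5 matches. The Dsp window was also rich in G and C, at 72.4% against a median of 52.4%. The 201 bases of Jup held 0 matches to CCNCNCCC, which 36.6% of windows of that length held, and 1 to GGGCGG, which 24.8% held. The 49 bases of Jup nearest the start lie inside the RefSeq span of the gene and were not searched. A match describes letters only, and no binding was measured here.

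Genes used by epithelia at large moved in the same arrays. All 14 genes of an epithelial reference list (Epcam, Cdh1, Krt8, Krt18, Esrp1, Esrp2, Grhl2, Spint1, Spint2, Rab25, Ap1m2, Cldn7, Lsr and St14) fell, by 0.36 to 1.27 on the log2 scale. Their summed linear signal was 18856 to 22091 in the deleted arrays and 36582 to 38210 in the controls. Their mean log2 signal was 10.18, 10.38 and 10.42 in the deleted arrays and 11.14, 11.18 and 11.21 in the controls, a difference of −0.85. Of 8 genes of the mesothelium, the keratin- and desmosome-bearing layer on the outside of the gut, 7 rose and Msln fell, with a summed linear signal of 8301 to 11097 against 5125 to 6839. The part of either in the desmosome values was not tested. The subtraction that follows uses the epithelial references only.

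Each desmosome gene was set against the mean of the epithelial references within each array. Pkp2 minus that mean was −1.55, −1.47 and −1.52 in the deleted arrays and −1.30, −1.34 and −1.30 in the controls. Pkp2 was thus lower relative to that mean by 0.20 (SE 0.03 from its own arrays), with no overlap. This SE leaves out the spread between reference genes, and the log2 fold change of Pkp2 (−1.05) lay inside their range (−1.27 to −0.36). Against the same mean, Dsc2 was lower by 0.15 (SE 0.09) and Perp by 0.01 (SE 0.14), and in both the groups overlapped. Ppl was higher by 0.12 (SE 0.05), with deleted replicate 3 at −2.08 next to control replicate 3 at −2.09.

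The other desmosome genes, which had fallen less or had not passed the test, were higher relative to the references. Dsp minus the reference mean was −0.30, −0.30 and −0.32 in the deleted arrays and −0.70, −0.83 and −0.71 in the controls, a shift of 0.44 (SE 0.04) with no overlap. Jup shifted by 0.36 (SE 0.12) and Dsg2 by 0.34 (SE 0.11). Deleted replicate 1 stood above the other deleted arrays for both, at 1.29 against 0.94 and 0.96 for Jup. Pkp3, Evpl and Pkp1 shifted by 0.70 (SE 0.09), 0.83 (SE 0.09) and 0.93 (SE 0.07), near the shift of 0.88 that the median of all genes showed. The exact permutation p was 0.1 for Pkp2, Ppl, Dsp, Jup, Dsg2, Pkp3, Evpl and Pkp1, the smallest possible, 0.2 for Dsc2 and 1.0 for Perp. The share of all genes at that smallest p was not computed. As the reference mean itself fell, genes that did not change also move up in this measure.

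In limma's fit of these differences, 6 of the 10 genes were called higher and 0 lower, beside 97.6% of all genes called higher and 1.00% lower. That fit gave every gene the same SE of 0.11, as the spread of the reference mean enters the difference of every gene, so its calls are not read here. With Epcam alone as the reference, the shifts were −0.44 for Pkp2, −0.39 for Dsc2, −0.25 for Perp, −0.13 for Ppl, 0.09 for Dsg2, 0.12 for Jup and 0.19 for Dsp, and the groups overlapped for Perp, Dsg2 and Jup. The direction of Ppl thus turned with the reference, and the shifts of Dsg2, Jup and Dsp shrank.

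**Figure D3:**
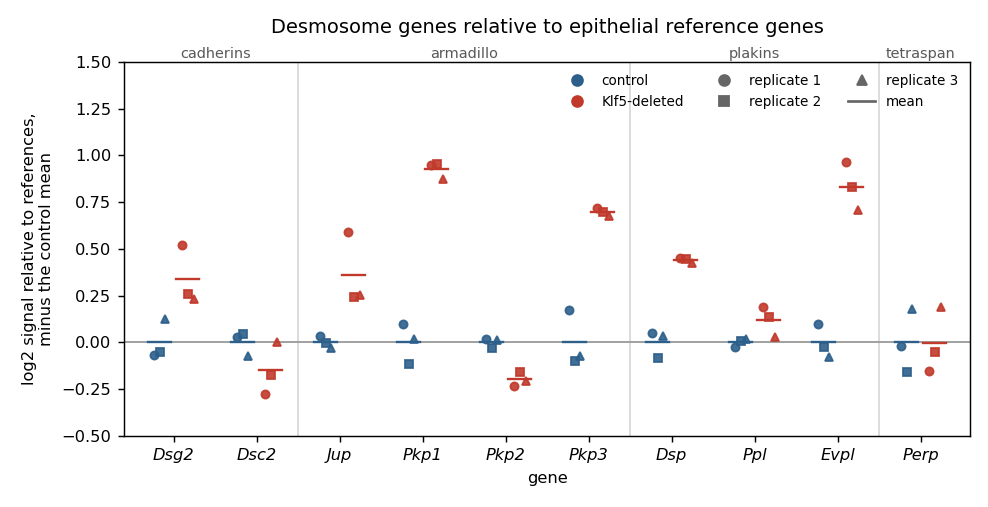
Log2 signal of each desmosome gene minus the mean log2 signal of 14 epithelial reference genes in the same array, shown relative to the control mean (y axis), in 3 control and 3 Klf5-deleted arrays (points; lines are group means). Pkp2 lies below 0 in the deleted arrays, Dsc2, Perp and Ppl lie near 0, Dsg2, Jup and Dsp lie at 0.34 to 0.44, and Pkp3, Evpl and Pkp1 at 0.70 to 0.93.

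The keratins that desmosomes anchor were also lower. Of the 37 measured genes in the lists of keratins and other junction genes that follow, 12 were called lower and 2 higher. Over all genes the shares were 8.58% and 8.95%. With the male share as a covariate, 0 of the calls in these lists was kept. At an unadjusted p below 0.05, 15 of the 37 were lower and 5 higher. Of 6 simple epithelial keratins, 5 fell and 0 rose (also at an unadjusted p below 0.05), with a median of −0.85. Krt19, a keratin of simple and ductal epithelia, read 10.11, 10.21 and 10.40 in the deleted arrays and 11.72, 11.79 and 11.78 in the controls, a fall of 1.52 (SE 0.08, adjusted p = 3.97e-05). Krt7 fell by 0.96 (SE 0.07), Krt23 by 0.87 (SE 0.06) and Krt8, the main type II keratin of simple epithelia, by 0.82 (SE 0.06). The fall of Krt18, the usual partner of Krt8, was 0.36 (SE 0.05), and Krt20 did not pass (−0.13, SE 0.17). Krt8 and Krt18 are also among the references.

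Other desmosomal cadherin genes, those of stratified epithelia, did not pass: 0 of the 5 measured genes (Dsg1b, Dsg1c, Dsg3, Dsg4 and Dsc3) were called by limma, and 0 had an unadjusted p below 0.05. The log2 fold changes ran from −0.09 for Dsg1c to 0.41 for Dsc3 (SE 0.19), and the groups overlapped for all 5. Dsg1a and Dsc1 were not analysed here.

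Among 9 other plakins and desmosome-associated proteins, 1 fell and 1 rose, with a median of −0.08. At an unadjusted p below 0.05 (limma), 2 were lower and 2 higher. Eppk1, which encodes epiplakin, a keratin-binding plakin, read 7.80, 8.03 and 8.04 in the deleted arrays and 8.55, 8.52 and 8.55 in the controls, a fall of 0.58 (SE 0.07, adjusted p = 0.00161). Macf1, a plakin that joins actin and microtubules in many cell types, rose by 0.34 (SE 0.04, adjusted p = 0.00197). Pkp4, a plakophilin relative found mainly at adherens junctions, did not pass (−0.10, SE 0.04, adjusted p = 0.202).

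Of 13 adherens junction genes, 5 fell and 1 rose (6 and 2 at an unadjusted p below 0.05), and the median was −0.10. Lower were Cdh1 (E-cadherin, −0.94, SE 0.10), Lmo7 (−0.74, SE 0.07), Nectin4 (−0.69, SE 0.08), Nectin3 (−0.33, SE 0.05) and Nectin1 (−0.30, SE 0.06). The catenins, plaque proteins that most cell types make, did not pass: Ctnna1 (−0.03, SE 0.05), Ctnnb1 (0.11, SE 0.04) and Ctnnd1 (−0.05, SE 0.04). Cdh3 (P-cadherin) read 11.68, 11.46 and 11.34 in the deleted arrays and 10.95, 10.80 and 10.90 in the controls, a rise of 0.61 (SE 0.09, adjusted p = 0.00401). Of 6 hemidesmosome genes, which anchor keratin to the basement membrane, Itgb4 alone fell, by 0.53 (SE 0.05, adjusted p = 0.000488), and 0 rose. At an unadjusted p below 0.05, 2 were lower and 2 higher.

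**Figure D4:**
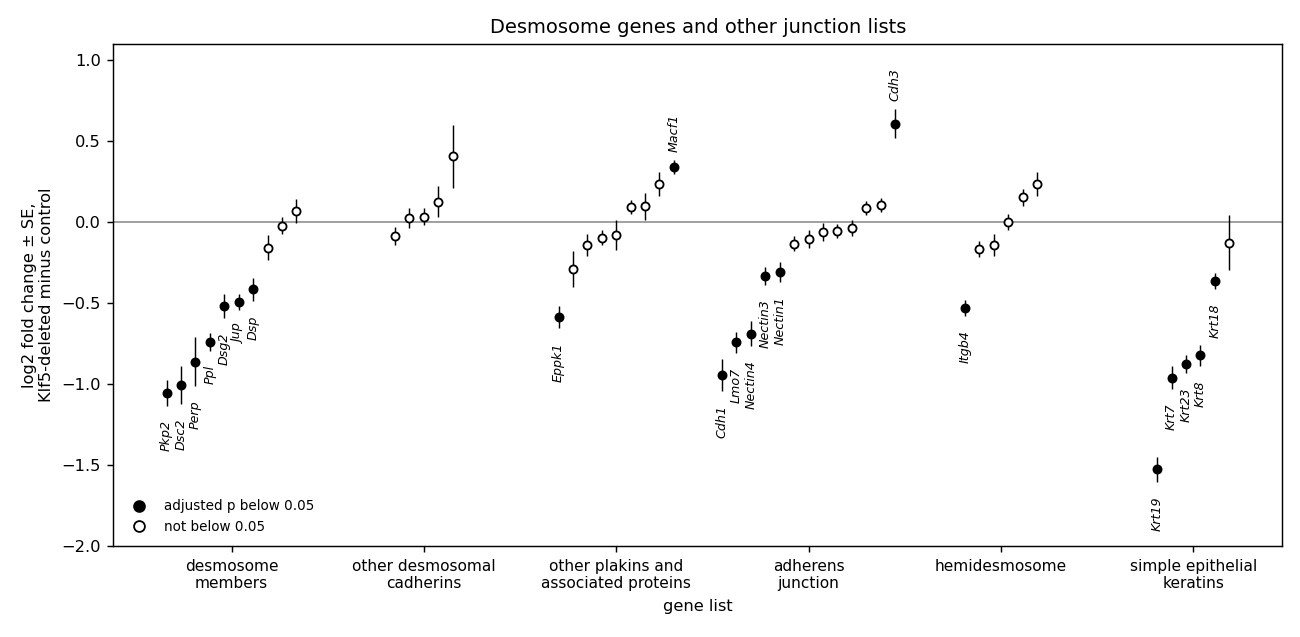
Log2 fold change (Klf5-deleted minus control, y axis) with SE for the 10 desmosome genes and the measured genes of 5 other junction lists (x axis), each point a gene; filled, named points have an adjusted p below 0.05. Of the desmosome genes 7 of 10 are filled and below 0, and of the simple epithelial keratins 5 of 6, whereas 0 of 5 other desmosomal cadherins are filled.

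By pattern over the 6 arrays, the genes most like the mean of the 10 desmosome genes were Psd4, Tspan8, Tfrc, Myo5b and Rfc5, with Pearson correlations of 0.998 to 0.999. Their own log2 fold changes were −0.67, −1.57, −0.90, −1.42 and −0.18. These correlations are a description of 6 arrays in 2 groups and are set mostly by the difference between the groups.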

How the data were processed

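RNA of 6 pools was measured on Affymetrix Mouse Gene 1.0 ST arrays. The submitters' processing notes name RMA and Affymetrix Expression Console 1.1, and the deposited values are on the log2 scale. RMA corrects background, quantile-normalises arrays and summarises probes, which hides any shift shared by most genes. The sources used here name no genome build for the array. Arrays have no read depth, and their number limits the precision.

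Of 35557 rows, 21789 had 1 gene symbol, 1621 had several and 12147 are unnamed here. Symbols were updated by gene ID to RefSeq (GRCm38.p6; 21698 rows matched). The brightest row per gene gave 19938 genes, with no filter. Groups, from the sample titles, were compared by lmFit and eBayes of limma 3.58.1 (R 4.3.3), with Benjamini-Hochberg adjustment over all genes at 0.05; the code was tested on simulated data. Differences between genes or against the references were taken within arrays and tested by exact permutation.

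The members and lists were chosen with earlier results of these data known. Named were the 10 members, Klf5, the sex genes, up to 4 genes with the smallest p past the threshold in each list and the 5 genes most like the members. Krt18, Krt20, Pkp4, Nectin1, Nectin3, the catenins, Dsg1c, Dsc3, Msln, Cdx2 and Vil1 were chosen after their values were seen. Alternatives were leaving out each array, quantile normalization, the replicate number as a block, median centring of arrays, a robust variance with intensity trend, filters removing the lowest 25% or 50% of genes, the mean of all rows of a gene, the male share as covariate, Epcam alone as reference and, added after seeing the data, no moderation of the variance.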

Additional observations from a re-analysis of the deposited data

How the results depend on the processing

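Of the 10 desmosome genes, 7 were called lower on leaving out any 1 array (7 to 7) and under each other alternative run except the male share as covariate (0 lower), no moderation of the variance (5) and the lowest 50% of genes left out (6), which removed Pkp1, Pkp3, Evpl and Perp from the test; 0 were called higher under any. Pkp3 turned to 0.19 with the male share as covariate, and Evpl to 0.10 in that fit and, over the fits without an array, ranged from −0.047 to 0.010; neither was called in any fit. Relative to the references, the count lower was 0 to 1 on leaving out an array, 1 with the replicate block, 1 without moderation and 3 with Epcam alone, and the count higher was 3 with the lowest 50% left out, 3 with the male share and 3 with Epcam alone. Perp relative to the references ranged from −0.10 to 0.083 on leaving out an array and turned to 0.086 with the male share, and Ppl to −0.13 with Epcam alone.

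Of the junction list genes, 12 were called lower and 2 higher, against 0 and 0 with the male share, and 4 were higher with the intensity trend. Over all genes, 1711 were lower and 1785 higher; the counts were 1132 to 1394 and 868 to 1363 on leaving out an array (lowest without control replicate 2), 1108 and 900 with the replicate block, 79 and 4 with the male share, and 1103 and 900 without moderation. The block changed no call of a desmosome gene against the controls (relative to the references it added a call of Pkp2). Over all genes, same-numbered arrays of the 2 groups did not deviate together (correlations of −0.27 to −0.03), so the numbers were not taken as pairs. Single genes could differ from this. The mesothelial genes Bnc1, Upk3b, Upk1b, Lrrn4 and Muc16 fell at each step from replicate 1 to 3 in both groups. Wt1, Msln and Gpm6a did not. With the block the SE of Perp was 0.09 against 0.15. The causes of these shifts were not tested. With 3 arrays per group, and with a male share that differs between the groups, Klf5 and sex cannot be fully told apart.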

Other observations

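The 6 marker lists not described above, of 5 other cell types of the gut wall and of stratified squamous epithelium, had medians nearer 0 than the epithelial list (−0.83). Of 8 smooth muscle genes, Myocd rose (0.35, SE 0.05) and 0 fell by limma (2 at an unadjusted p below 0.05), with a median of 0.01. Of 8 fibroblast genes Pdgfra rose (0.26, SE 0.05; 4 higher at an unadjusted p below 0.05), with a median of 0.09, and of 6 measured enteric neural crest genes Sox10 rose (0.39, SE 0.07; 3 higher at an unadjusted p below 0.05), with a median of 0.16. Of 8 endothelial genes 0 passed limma's test (1 at an unadjusted p below 0.05), with a median of 0.14, and of 6 leukocyte genes 0 passed (0 at an unadjusted p below 0.05), with a median of −0.05.

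Of 8 genes of stratified squamous epithelium, the tissue in which Pkp1, Ppl and Evpl are best known, 1 fell and 0 rose, with a median of 0.00. The gene that fell was Sfn, which encodes the epithelial 14-3-3 protein stratifin (log2 fold change −1.47, SE 0.10, adjusted p = 0.000164). Krt5, a basal keratin, was at 7.34, 8.01 and 8.84 in deleted replicates 1 to 3 and at 7.71, 7.65 and 8.28 in control replicates 1 to 3. Replicate 3 was the highest array of each group for Krt5, a gene picked once its values were known.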
